A study of Mus musculus with 8 samples.

Results

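The genes described here encode the semaphorins, ephrins, Slits and netrins, the extracellular cues that steer growing axons and migrating cells, and their receptors. They were the rows of the count table whose symbols start with Sema and a digit, Plxn, Epha, Ephb, Efna, Efnb, Slit and a digit, Robo, Unc5, or Ntn and a digit, together with Nrp1, Nrp2, Dcc and Neo1. The rule found 54 of 12211 rows, and no measured value entered it, although the gene group was chosen with earlier results of these data known. One of the 54, Unc50, fits by spelling only, because it encodes no Unc5 receptor (55.5 ± 5.59 CPM in control and 50.4 ± 5.20 CPM in PUS10KO, not called). The other 53 were 7 class 3 semaphorins, 9 semaphorins of classes 4 to 7, 8 plexins, 2 neuropilins, 5 A-type and 2 B-type ephrins, 5 EphA and 4 EphB receptors, 2 Slits, 3 Robos, 3 netrins, 2 Unc5 receptors and neogenin (Neo1). Another 18 protein-coding symbols that fit the rule, Dcc, Slit1 and Unc5a among them, were not analysed here.

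The 8 RNA sequencing libraries were made from mouse embryonic fibroblasts (MEFs), connective tissue cells grown out of embryos. There were 4 control libraries, with genotype WT in the labels, and 4 libraries labelled PUS10KO, and both sets are numbered 1 to 4. PUS10 belongs to the pseudouridine synthases, enzymes that convert uridine in RNA to pseudouridine. All cells were kept in DMEM with serum and antibiotics. No source used here gives the strain, embryonic age, passage, number of lines or clones, or the part of the gene removed. Nothing in the labels ties the libraries to separate cultures or embryos, so the p-values rest on a spread between samples that may be no more than technical.

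Some guidance cues are secreted and diffuse, others stay on the cell surface and act by contact, and many of them repel. Secreted class 3 semaphorins bind a neuropilin that is held in a complex with a plexin, whereas the membrane-bound classes bind plexins directly. Ephrins sit in the membrane of one cell and bind Eph receptor tyrosine kinases on its neighbour, Slits bind Robo receptors, and netrins bind Dcc, neogenin and the Unc5 receptors. Outside the nervous system the same molecules act on cell adhesion, spreading and migration.

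Total counts per library ran from 17561114 to 24563499. The targeted gene Pus10 had 40.9, 51.5, 40.1 and 51.8 CPM in control and 14.3, 15.2, 14.2 and 11.5 CPM in PUS10KO (CPM, counts relative to library size after TMM scaling). It was lower in every PUS10KO library, and its mean ± SD (n = 4, as throughout) went from 46.1 ± 6.46 to 13.8 ± 1.60 CPM, with log2 fold change -1.74, SE 0.15, edgeR adjusted p = 0.000189. The Y-linked genes Eif2s3y, Uty and Kdm5d had at least 722 counts in each PUS10KO library and at most 2 in any control library, so sex chromosome content and genotype cannot be told apart here. The 11 fibroblast markers summed to 16800 to 21130 CPM in control and 10470 to 15860 CPM in PUS10KO. Of these markers 5 fell, where 7.11% of all genes tested did. The edgeR adjusted p was 0.0499 for Col1a2, 0.0461 for Pdgfrb, 0.0254 for Vim, 0.043 for Twist1 and 0.0027 for Prrx1. These sums are carried by abundant genes such as Vim and Col1a2, and Pdgfra, at 49.8 ± 20.7 CPM in control and 101 ± 21.1 CPM in PUS10KO (edgeR adjusted p = 0.0605), and Lum, at 0.714 ± 0.471 CPM in control and 1.11 ± 0.804 CPM in PUS10KO (edgeR adjusted p = 0.612), had higher means in PUS10KO without being called. Of 11 neuronal markers Tubb3, Map2 and Stmn2 have a row, with summed levels of 34.3 to 119 CPM in control and 23.8 to 67.9 CPM in PUS10KO, and Stmn2 fell from 7.43 ± 4.00 to 0.118 ± 0.113 CPM (edgeR adjusted p = 0.00131). The more abundant Tubb3 was not called, at 33.4 ± 11.92 CPM in control and 34.3 ± 9.29 CPM in PUS10KO (edgeR adjusted p = 0.956). Nor was Map2, at 33.81 ± 20.95 CPM in control and 13.15 ± 12.84 CPM in PUS10KO (edgeR adjusted p = 0.304). Of 7 neural progenitor and glial markers Nes and Slc1a3 have a row (123 to 214 CPM summed in control, 74.2 to 87.3 CPM in PUS10KO), of which Nes fell from 134 ± 58.8 to 33.8 ± 12.7 CPM (edgeR adjusted p = 0.00894) and Slc1a3, at 20.2 ± 19.6 CPM in control and 47.0 ± 15.4 CPM in PUS10KO (edgeR adjusted p = 0.293), was not called. Of 9 endothelial markers Kdr, Tek and Flt1 have a row (17.8 to 105 CPM summed in control, 6.98 to 19.8 CPM in PUS10KO), of 7 leukocyte markers Cd68, Csf1r and Lyz2 (4.997 to 9.05 CPM in control, 2.51 to 6.67 CPM in PUS10KO), and of 8 epithelial markers none. No endothelial or leukocyte marker was called. The part of these markers in the guidance gene results was not tested. In bulk libraries fewer cells of a type and less RNA per cell cannot be told apart.

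Whether most tested guidance genes changed in PUS10KO depended on the fit. Most were not called when library number was left out, but 59.2% were called when libraries were paired by number. Class 3 semaphorins, plexins and A-type ephrins each held genes that rose and genes that fell, with or without this pairing. The genes named next were called both ways. Calls given below leave the number out unless another fit is named. The secreted semaphorins Sema3c and Sema3g, the Slit receptor gene Robo2, the ephrin Efna3, the Eph receptor Ephb6 and the plexin Plxnb2 rose. The semaphorins Sema3e and Sema3f, the plexin Plxna4, the ephrin Efna5, the Eph receptors Epha1 and Epha3, the netrin Ntn4 and the netrin receptors Neo1 and Unc5b fell. Of the 54 rows 49 had enough counts to be tested, and 6 of the 49 rose and 9 fell at an adjusted p under 0.05 (edgeR's quasi-likelihood test, Benjamini-Hochberg adjustment over 11909 genes). That is 30.6% of the tested members, where 13.0% of all genes tested were called, 5.90% higher and 7.11% lower. In 20 of the 49 (40.8%) the values of one genotype all lay above those of the other, 9 with PUS10KO higher and 11 with PUS10KO lower, where this held for 20.3% of all genes tested, 9.70% with PUS10KO higher and 10.6% with PUS10KO lower. These 20 include each of the 15 called members. The median log2 fold change of the 49 was -0.14, against 0.01 over all genes tested, and the median of its absolute value was 0.57 against 0.26. Of the 49, 44 reached 0.497 CPM, the level of the count filter, in all 8 libraries. Epha1 and Plxna4 reached it in control libraries only and Sema3g in 1 control library and all PUS10KO libraries, so these 3 were tested largely because of the genotype in which they were high.

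Libraries of the same number resembled each other across genotypes, and a fit with the number as a replicate block called more genes. With this block 12 members rose and 17 fell, 59.2% of those tested, where 39.0% of all genes tested passed, 19.1% higher and 19.9% lower. The 15 members called without the block were called with it. DESeq2 called 18 members, 8 higher and 10 lower, beside 19.4% of all genes tested (9.09% higher, 10.3% lower). Limma voom called 15 members, 6 higher and 9 lower, beside 12.9% of all genes tested (6.01% higher, 6.93% lower). Both lists hold the same 15 that edgeR called.

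**Figure D1:**
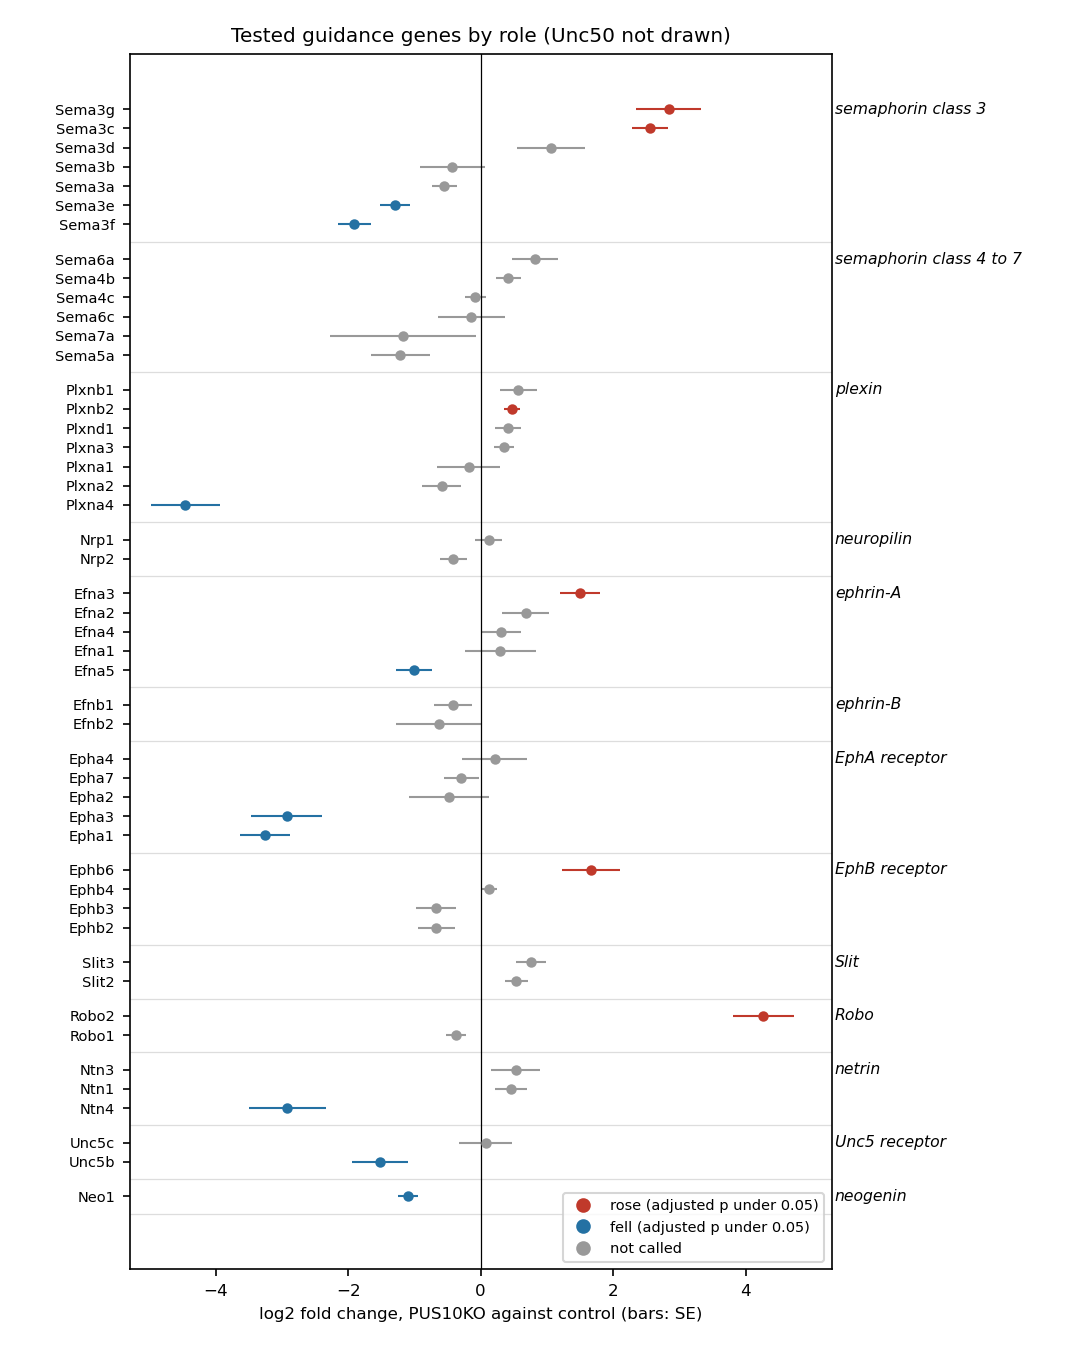
Log2 fold change of 48 tested guidance genes (x axis, PUS10KO against control, bars show SE) grouped by role on the y axis, with genes that rose in red, genes that fell in blue and genes not called in grey. The values run from 4.27 for Robo2 to -4.46 for Plxna4.

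Class 3 semaphorins, the secreted ligands, held 4 of the 15 called genes, 2 in each direction. Sema3c, which binds neuropilins and acts on migrating neural crest cells, lies on chromosome 5, 17574281 to 17730268, plus strand (all gene positions are those of GENCODE M21, GRCm38). It had 97.7, 63.5, 74.1 and 96.3 CPM in control and 324, 369, 605 and 652 CPM in PUS10KO, in the order of the library numbers here and below. Every PUS10KO library was above every control library, and PUS10KO 3 and 4 were above PUS10KO 1 and 2. The mean was 5.88 times as high in PUS10KO, at 82.9 ± 16.9 CPM in control and 488 ± 165 CPM in PUS10KO (log2 fold change 2.56, SE 0.27, edgeR adjusted p = 0.000631). The differences between libraries of the same number were 1.73, 2.54, 3.03 and 2.76 on the log2 scale.

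Sema3g, another ligand of the class (chromosome 14, 31217860 to 31230352, plus strand), had 0.0973, 0.328, 0.412 and 0.575 CPM in control and 1.54, 2.11, 2.79 and 3.84 CPM in PUS10KO. It rose from a level near the count filter, with 28 counts over the control libraries and 218 over the PUS10KO libraries (log2 fold change 2.84, SE 0.49, edgeR adjusted p = 0.00606). Sema3d had 1.36, 1.15, 1.29 and 3.11 CPM in control and 1.60, 2.43, 3.80 and 6.71 CPM in PUS10KO. Its genotypes overlapped (log2 fold change 1.06, SE 0.51, edgeR adjusted p = 0.223), and with the replicate block it was called higher (adjusted p = 0.0111).

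Sema3f, a ligand that signals mainly through Nrp2, fell (chromosome 9, 107681500 to 107710475, minus strand). Its levels were 61.1, 88.5, 97.7 and 73.2 CPM in control and 16.4, 14.8, 26.9 and 27.1 CPM in PUS10KO. The lowest control library stood above the highest PUS10KO library by more than a factor of 2 (log2 fold change -1.91, SE 0.25, edgeR adjusted p = 0.00154). Sema3e, which can bind plexin D1 without a neuropilin, had 20.3, 26.2, 15.9 and 17.5 CPM in control and 6.72, 6.21, 10.3 and 9.42 CPM in PUS10KO, again with no overlap (log2 fold change -1.29, SE 0.23, edgeR adjusted p = 0.00695). Sema3a, the founding axon repellent of the class and a ligand of Nrp1, had 178, 188, 148 and 153 CPM in control and 133, 143, 100.2 and 79.3 CPM in PUS10KO. Its genotypes did not overlap, and it was called with the block only (log2 fold change -0.55, SE 0.19, edgeR adjusted p = 0.103, or 0.00316 with the block). Sema3b was called in neither fit (log2 fold change -0.43, SE 0.49, edgeR adjusted p = 0.631).

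By mean level per length, the class had a different leading member in each genotype. Dividing by the kilobases of annotated exon allows levels of different genes to be set side by side, although cells may use fewer exons than are annotated. The summed level of the 7 genes was 43.1, 43.6, 43.9 and 43.1 CPM per kilobase in control and 60.3, 66.6, 101 and 108 in PUS10KO. In control it was spread over Sema3f (35.5 ± 6.88% of the sum), Sema3a (27.7 ± 3.26%) and Sema3c (26.8 ± 5.66%). Sema3c held the largest share in control 1 (31.8%, against 27.3% for Sema3f), and Sema3f did in control 2, 3 and 4. In control 4 the shares were close (32.7% for Sema3f and 31.3% for Sema3c). In PUS10KO Sema3c held 80.4 ± 4.73%, Sema3a 10.9 ± 5.49% and Sema3f 4.87 ± 0.423%. Among all 54 rows, ranked by mean level per length, Sema3c stood at rank 12 in control and rank 1 in PUS10KO, and Sema3f at rank 10 in control and rank 20 in PUS10KO. Plxnb2 stood above Sema3c per length in PUS10KO 1 and 2.

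**Figure D2:**
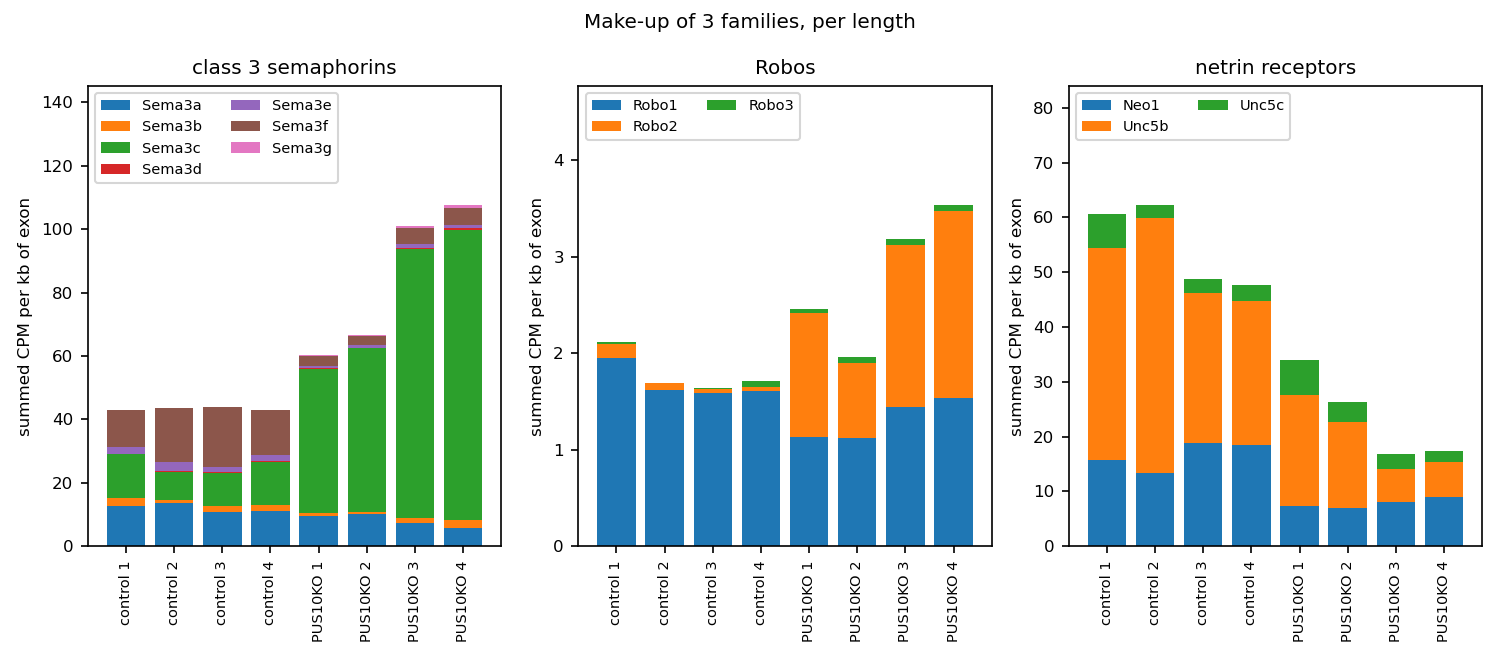
Summed level per kilobase of exon (y axis, TMM-scaled CPM per kb) of the class 3 semaphorins, the Robos and 3 netrin receptors in each of the 8 libraries (x axis), with the share of each gene in colour. Sema3c makes up most of its family in PUS10KO, Robo2 goes from 3.92% of the Robo sum in control to 49.99% in PUS10KO, and the netrin receptor sum is lower in each PUS10KO library than in any control library.

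Semaphorins of classes 4 to 7 are membrane-bound or held by a lipid anchor, apart from shed forms. Of the 6 with enough counts edgeR called 0, and 2 reached an unadjusted p under 0.05, while DESeq2 called 1 and voom 0. Sema4c, a plexin B ligand and the highest of them by mean level per length in both genotypes, was at 19.2 ± 3.09 CPM in control and 18.2 ± 1.82 CPM in PUS10KO (log2 fold change -0.08, SE 0.16, edgeR adjusted p = 0.811). Per length, Sema7a stood above Sema4c in control 1. Sema4b (0.42 on the log2 scale) and Sema6c (-0.14) were called in neither fit. The replicate block called Sema5a and Sema7a lower (-1.21 and -1.17 on the log2 scale, adjusted p = 0.119 and 0.556 without and 0.00139 and 0.00124 with the block). Without the block, the Sema7a value ran from -2.11 to -0.04 when 1 library was left out, the first without PUS10KO 1 and the second without control 1. The block called Sema6a higher (0.82 on the log2 scale, adjusted p = 0.175 without and 0.017 with the block). Sema4d, Sema5b and Sema6d had too few counts for the test. Sema4d, a plexin B ligand, had 22 counts over the control libraries and 117 over the PUS10KO libraries, with PUS10KO 1 inside the control range. Sema5b had 44 and 4 counts and Sema6d 42 and 15.

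Plexins and neuropilins, the semaphorin receptors, showed 1 rise and 1 fall among 9 tested genes. Plxna4, a receptor for class 3 and class 6 semaphorins (chromosome 6, 32144268 to 32588192, minus strand), had the largest fall of the tested members. It had 4.67, 3.34, 8.35 and 6.51 CPM in control and 0.441, 0.159, 0.0844 and 0.379 CPM in PUS10KO, which are 455 counts over the control libraries and 21 over the PUS10KO libraries. All PUS10KO libraries were far under the control range (log2 fold change -4.46, SE 0.52, edgeR adjusted p = 0.000944). An antisense gene, Plxna4os3, shares 110 bases of exon with it, and no source used here says whether the counting used strand.

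Plxnb2, a receptor of class 4 semaphorins and the highest of the 54 rows by mean level per length in control, had 318, 349.6, 401 and 343 CPM in control and 454, 488, 502 and 519 CPM in PUS10KO (chromosome 15, 89155549 to 89180788, minus strand). The genotypes did not overlap and the rise was small (log2 fold change 0.48, SE 0.12, edgeR adjusted p = 0.0291). The call was lost without control 1, 2 or 4 or PUS10KO 2, 3 or 4 (adjusted p 0.059 to 0.0842) and with upper quartile scaling (0.0553). Per length, Epha4 and, by a small margin, Plxna1 stood above Plxnb2 in control 1, and Unc5b did in control 2.

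The other plexins were not called. Plxna1, the highest A-type plexin per length, had 374, 199, 150.2 and 91.8 CPM in control and 317, 191, 111 and 100.5 CPM in PUS10KO, a spread between numbers larger than that between genotypes (log2 fold change -0.18, SE 0.48, edgeR adjusted p = 0.857). Plxna2 and Plxna3 had -0.59 and 0.35 on the log2 scale (edgeR adjusted p = 0.246 and 0.171), and both were called with the block (0.00353 and 0.0184). Plxnb1 (0.57) and Plxnd1 (0.41), the receptor of Sema3e, were called in neither fit. Plxnc1, the receptor of Sema7a, had 13 counts in control and 36 in PUS10KO and was not tested.

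The neuropilins, co-receptors of class 3 semaphorins, did not pass the test. Nrp1 had 317, 335, 323 and 330.0 CPM in control and 499.9, 375, 279 and 265 CPM in PUS10KO. The control values lay close together and the PUS10KO values lay on both sides of them (log2 fold change 0.12, SE 0.20, edgeR adjusted p = 0.752). Nrp2 was at 19.5 ± 5.33 CPM in control and 14.7 ± 1.64 CPM in PUS10KO (log2 fold change -0.41, SE 0.21, edgeR adjusted p = 0.254). Nrp1 made up 95.3 ± 1.32% of the summed neuropilin level per length in control and 96.5 ± 1.10% in PUS10KO.

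Slits had higher mean levels in PUS10KO without passing the test, and of their receptors Robo2 rose. Slit2, a secreted repellent, had 224, 196, 204 and 172 CPM in control and 370.2, 297, 230.5 and 262 CPM in PUS10KO. The genotypes did not overlap (log2 fold change 0.54, SE 0.17, edgeR adjusted p = 0.0645), and Slit2 passed with the block (0.00456), with DESeq2 (0.0169) and with upper quartile scaling (0.0413). Slit3 had 33.9, 20.4, 21.8 and 15.99 CPM in control and 31.7, 35.5, 43.6 and 44.9 CPM in PUS10KO, with control 1 inside the PUS10KO range (log2 fold change 0.76, SE 0.23, edgeR adjusted p = 0.0681). Its adjusted p was 0.0104 without control 1 and 0.0222 with the block.

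Robo2, an immunoglobulin-superfamily receptor of Slits (chromosome 16, 73891839 to 74411825, minus strand), had the largest rise of the tested members. It had 2.38, 1.15, 0.670 and 0.766 CPM in control and 21.9, 13.3, 28.4 and 33.0 CPM in PUS10KO. The lowest PUS10KO library was more than 5 times the highest control library, and the mean was 19.4-fold higher (log2 fold change 4.27, SE 0.46, edgeR adjusted p = 0.000692). Robo1, its neighbour on the same chromosome (72308306 to 73046095, plus strand), had 32.3, 26.8, 26.2 and 26.5 CPM in control and 18.7, 18.5, 23.9 and 25.3 CPM in PUS10KO and was not called (log2 fold change -0.37, SE 0.15, edgeR adjusted p = 0.156, or 0.0558 with the block). Its genotypes did not overlap, with PUS10KO lower. No other tested gene lies in the 846 kb between Robo1 and Robo2. Per length Robo2 made up 3.92 ± 1.95% of the summed Robo level in control and 49.99 ± 6.83% in PUS10KO, and Robo1 94.7 ± 2.01% and 48.0 ± 6.20%. Robo3, a member that acts in axons crossing the midline, had 14 and 32 counts and was not tested.

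The promoters of this pair are shown because the genes lie next to each other, are transcribed towards the same gap, and differed in whether they were called. The sequences are the 250 bases before a start in RefSeq (GRCm38.p6), 5′ to 3′ on the gene's strand, for Robo1 at chr16:72662899-72663148, plus strand, which lies within the longest annotated gene bounds, and for Robo2 at chr16:74411826-74412075, minus strand, the most downstream of its 3 RefSeq starts. The motifs searched on both strands were the TATA box (TATAAA), the GC box (GGGCGG), the CCAAT box (CCAAT), the TEAD motif (CATTCC) and the core of the interferon response element, and matches would stand in capitals.
Robo1: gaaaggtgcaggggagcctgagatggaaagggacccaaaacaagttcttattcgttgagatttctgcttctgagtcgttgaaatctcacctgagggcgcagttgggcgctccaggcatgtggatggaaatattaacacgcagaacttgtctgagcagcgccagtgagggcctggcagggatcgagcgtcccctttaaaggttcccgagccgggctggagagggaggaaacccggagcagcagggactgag
Robo2: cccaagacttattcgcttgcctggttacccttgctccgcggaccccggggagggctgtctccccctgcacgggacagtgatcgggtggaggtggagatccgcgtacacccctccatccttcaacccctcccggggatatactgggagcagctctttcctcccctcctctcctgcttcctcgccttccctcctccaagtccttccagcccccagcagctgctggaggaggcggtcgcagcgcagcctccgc
Neither window holds any of these motifs. The GC box stands in 32.7% of all 32851 RefSeq promoter windows of this length, the CCAAT box in 33.8%, the TEAD motif in 12.6%, the TATA box in 12.4% and the interferon response element core in 2.98%. RefSeq promoters were found for 48 of the 54 rows, 60 windows in all, of which 44 hold a GC box, 13 a CCAAT box, 7 a TEAD motif, 2 a TATA box and 1 the interferon response element core. The windows of guidance genes had a median of 16 CpG dinucleotides, against 6 over all windows. All windows were not limited to genes with a row in the count table, whereas those of the guidance genes were. These shares and medians therefore do not compare like with like. A match describes letters and does not show a bound factor.

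Among the netrins and their receptors 3 of 6 tested genes fell. Ntn4, a netrin of basement membranes (chromosome 10, 93640681 to 93747207, plus strand), had 41.1, 14.9, 9.43 and 7.76 CPM in control and 2.699, 1.31, 2.19 and 3.52 CPM in PUS10KO. Control 1 was the highest library, and the genotypes did not overlap without it either (log2 fold change -2.92, SE 0.58, edgeR adjusted p = 0.0112). Leaving out 1 library at a time gave -3.16 to -2.13 on the log2 scale, and the differences within numbers were -3.93, -3.50, -2.10 and -1.14. Ntn1, the classical attractant of commissural axons, had 19.7, 15.7, 18.2 and 14.0 CPM in control and 31.3, 27.9, 17.56 and 16.02 CPM in PUS10KO, and the genotypes overlapped (log2 fold change 0.46, SE 0.24, edgeR adjusted p = 0.268). Ntn3 had 0.53 on the log2 scale (edgeR adjusted p = 0.414, or 0.0358 with the block), and it shares 89 exon bases with Tbc1d24 on the same strand, so its counts are uncertain. Ntn4 held 51.1 ± 17.4% of the summed netrin level per length in control and 11.3 ± 4.12% in PUS10KO, and Ntn1 34.9 ± 9.91% and 63.5 ± 15.9%.

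Neo1 encodes neogenin, a relative of Dcc that binds netrins and repulsive guidance molecules (chromosome 9, 58874687 to 59036441, minus strand). It had 138, 116, 164 and 161 CPM in control and 63.7, 60.7, 70.4 and 78.0 CPM in PUS10KO, so that each PUS10KO library lay well under the lowest control library (log2 fold change -1.09, SE 0.15, edgeR adjusted p = 0.00179). Rgma and Rgmb, which encode repulsive guidance molecules, had -0.11 and -0.50 on the log2 scale (edgeR adjusted p = 0.896 and 0.081, and 0.0118 for Rgmb with the block). Unc5b, a netrin receptor that mediates repulsion (chromosome 10, 60762593 to 60831581, minus strand), had 242, 291, 171 and 165 CPM in control and 127, 97.7, 37.6 and 39.7 CPM in PUS10KO. Libraries 3 and 4 were below libraries 1 and 2 in both genotypes, and the genotypes did not overlap (log2 fold change -1.52, SE 0.42, edgeR adjusted p = 0.0432). The call was lost without any 1 library except PUS10KO 1 (adjusted p 0.0585 to 0.096). Of the 20 tested genes nearest to Unc5b 10 fell and none rose (median log2 fold change -0.64). Over all genes tested 7.11% fell and 5.90% rose. Among such windows around the 15 called members this one held the most falls, and the next, around Ephb6, held 4. The part of these neighbours in the change of Unc5b was not tested. Unc5c was not called (log2 fold change 0.08, SE 0.40, edgeR adjusted p = 0.933). The summed level per length of Neo1, Unc5b and Unc5c was 60.6, 62.2, 48.8 and 47.7 CPM per kilobase in control and 33.9, 26.2, 16.9 and 17.4 in PUS10KO.

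The promoters of Ntn4 (chr10:93640799-93641048, plus strand) and Neo1 (chr9:59036442-59036691, minus strand) are shown as a ligand and a receptor that both fell. The Ntn4 window lies within the longest annotated gene bounds. Capitals mark GC boxes in both and 1 CCAAT box in Neo1, on either strand.
Ntn4: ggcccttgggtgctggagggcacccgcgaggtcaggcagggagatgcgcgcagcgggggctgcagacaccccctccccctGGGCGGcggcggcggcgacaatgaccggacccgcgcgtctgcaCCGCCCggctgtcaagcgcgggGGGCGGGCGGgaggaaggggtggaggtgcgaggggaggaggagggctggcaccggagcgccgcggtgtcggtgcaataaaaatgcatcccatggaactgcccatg
Neo1: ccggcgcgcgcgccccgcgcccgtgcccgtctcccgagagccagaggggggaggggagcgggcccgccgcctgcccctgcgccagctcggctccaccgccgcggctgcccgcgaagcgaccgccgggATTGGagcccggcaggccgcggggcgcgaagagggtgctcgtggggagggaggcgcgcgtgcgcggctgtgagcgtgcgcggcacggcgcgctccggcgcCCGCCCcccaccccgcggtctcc
Ntn4 has 4 GC box matches, of which a pair overlaps, and 26 CpG dinucleotides. Neo1 has 1 GC box match and 45 CpG dinucleotides.

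Ephrins, the membrane-bound ligands, had 1 rise and 1 fall among 7 tested genes, both of the A type that is held by a lipid anchor. Efna3 had 1.31, 0.821, 1.44 and 2.11 CPM in control and 4.46, 3.78, 4.31 and 3.57 CPM in PUS10KO, a low level with no overlap (log2 fold change 1.5, SE 0.30, edgeR adjusted p = 0.012). It lies on chromosome 3, 89313899 to 89322965, minus strand, between Efna1 and Efna4, and an antisense gene shares 344 bases of its exons. Efna4 lies 10.4 kb from Efna3 and was not called (log2 fold change 0.31, SE 0.30, edgeR adjusted p = 0.561), and neither was Efna1, 32.8 kb away on the other side (log2 fold change 0.30, SE 0.53, edgeR adjusted p = 0.767). Efna5 (chromosome 17, 62604184 to 62881317, minus strand) had 8.62, 4.87, 6.39 and 5.65 CPM in control and 4.02, 2.15, 3.08 and 3.41 CPM in PUS10KO. Its genotypes did not overlap (log2 fold change -1.01, SE 0.27, edgeR adjusted p = 0.0381), and the call was kept without control 2 or PUS10KO 1 and lost without any other 1 library (adjusted p 0.0621 to 0.101).

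Efna2 was called in neither fit, although its genotypes did not overlap (log2 fold change 0.68, SE 0.35, edgeR adjusted p = 0.258). Efnb2, a transmembrane ephrin of blood vessels and mesenchyme with the highest mean ephrin level per length in both genotypes, had 159.9, 82.8, 49.97 and 25.4 CPM in control and 95.7, 66.3, 25.3 and 18.4 CPM in PUS10KO. Levels differed more between numbers than between genotypes, and PUS10KO was lower at each number (log2 fold change -0.63, SE 0.64, edgeR adjusted p = 0.591, or 0.00389 with the block). The log2 fold change was -0.02 without control 1 and -1.11 without PUS10KO 1. Per length, Efna4 stood above Efnb2 in libraries 3 and 4 of both genotypes, and Efnb1 did in control 4, PUS10KO 3 and PUS10KO 4. Efnb1, on the X chromosome, was not called (log2 fold change -0.42, SE 0.29, edgeR adjusted p = 0.414).

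EphA receptors had 2 falls among 5 tested genes. Epha1 (chromosome 6, 42358487 to 42373268, minus strand) had 1.90, 2.85, 1.80 and 2.39 CPM in control and 0.220, 0.119, 0.211 and 0.379 CPM in PUS10KO, which are 176 and 19 counts over the genotypes (log2 fold change -3.26, SE 0.38, edgeR adjusted p = 0.000944). It shares 236 bases of exon with Zyx on the opposite strand. Epha3, a receptor that ephrin-A5 binds (chromosome 16, 63543534 to 63864175, minus strand), had 5.40, 2.52, 6.39 and 13.0 CPM in control and 1.10, 0.438, 0.929 and 1.14 CPM in PUS10KO, with every PUS10KO library below every control library (log2 fold change -2.93, SE 0.53, edgeR adjusted p = 0.00726). Both receptors were low beside Epha4 and Epha2.

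Epha4, a receptor for ephrins of both types, had the highest mean level per length of the Eph receptors in both genotypes. It had 382, 180.4, 89.6 and 84.5 CPM in control and 338, 188, 182 and 146 CPM in PUS10KO, with large differences between numbers and overlapping genotypes (log2 fold change 0.21, SE 0.49, edgeR adjusted p = 0.83). The sign of its log2 fold change was lost without control 3 or 4 or PUS10KO 1. Per length, Ephb4 and Ephb3 stood above Epha4 in control 3 and 4, and Ephb4 and Ephb6 did in PUS10KO 4. Epha2 had 136, 91.1, 46.7 and 32.2 CPM in control and 111, 59.6, 28.9 and 19.5 CPM in PUS10KO. It was lower in PUS10KO at each number and was called with the block only (log2 fold change -0.48, SE 0.60, edgeR adjusted p = 0.666, or 0.00227 with the block). The log2 fold change ran from -1.09 to -0.03 when 1 library was left out, the first without PUS10KO 1 and the second without control 1. Epha7 was not called (log2 fold change -0.29, SE 0.26, edgeR adjusted p = 0.537).

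Of 4 EphB receptors 1 rose. Ephb6, whose kinase domain lacks catalytic activity (chromosome 6, 41605482 to 41620509, plus strand), had 11.9, 7.61, 19.0 and 23.8 CPM in control and 37.7, 24.2, 55.9 and 80.6 CPM in PUS10KO. The lowest PUS10KO library was close to the highest control library, and the differences within numbers were 1.67, 1.67, 1.56 and 1.76 on the log2 scale (log2 fold change 1.67, SE 0.44, edgeR adjusted p = 0.0369, or 7.91e-06 with the block). The call was lost without control 1, 2 or 3 or PUS10KO 3 or 4 (adjusted p 0.0696 to 0.0924) and with upper quartile scaling (0.0501). Ephb2 and Ephb3 had -0.67 and -0.67 on the log2 scale (edgeR adjusted p = 0.162 and 0.202), and both were called lower with the block (0.00185 and 0.0012). Ephb4, the receptor of ephrin-B2, was at 75.6 ± 8.30 CPM in control and 82.8 ± 4.61 CPM in PUS10KO (log2 fold change 0.13, SE 0.12, edgeR adjusted p = 0.533). Ephb6 and Epha1 lie 738 kb apart, and of the 4 tested genes between them 1 rose and none fell.

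The promoters of Efna3 (chr3:89321769-89322018, minus strand, at 1 of its 2 RefSeq starts) and Epha1 (chr6:42373269-42373518, minus strand) are shown as an ephrin-A gene that rose and an EphA receptor gene that fell. The Efna3 window lies within the longest annotated gene bounds. Capitals mark GC boxes in both and 1 TEAD motif in Epha1, on either strand.
Efna3: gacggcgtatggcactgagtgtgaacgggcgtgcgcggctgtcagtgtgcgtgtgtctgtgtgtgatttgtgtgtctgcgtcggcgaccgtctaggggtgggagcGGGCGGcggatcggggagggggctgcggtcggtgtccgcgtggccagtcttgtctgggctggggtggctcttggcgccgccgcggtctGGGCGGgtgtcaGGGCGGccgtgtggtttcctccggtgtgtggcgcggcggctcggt
Epha1: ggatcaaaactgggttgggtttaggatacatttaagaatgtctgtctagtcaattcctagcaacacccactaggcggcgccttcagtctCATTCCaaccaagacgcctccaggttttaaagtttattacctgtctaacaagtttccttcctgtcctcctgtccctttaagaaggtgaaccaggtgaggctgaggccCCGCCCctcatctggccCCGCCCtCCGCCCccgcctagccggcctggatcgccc
Efna3 has 3 GC box matches and 31 CpG dinucleotides, and Epha1 has 3 GC box matches, 1 TEAD motif match and 9 CpG dinucleotides.

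**Figure D3:**
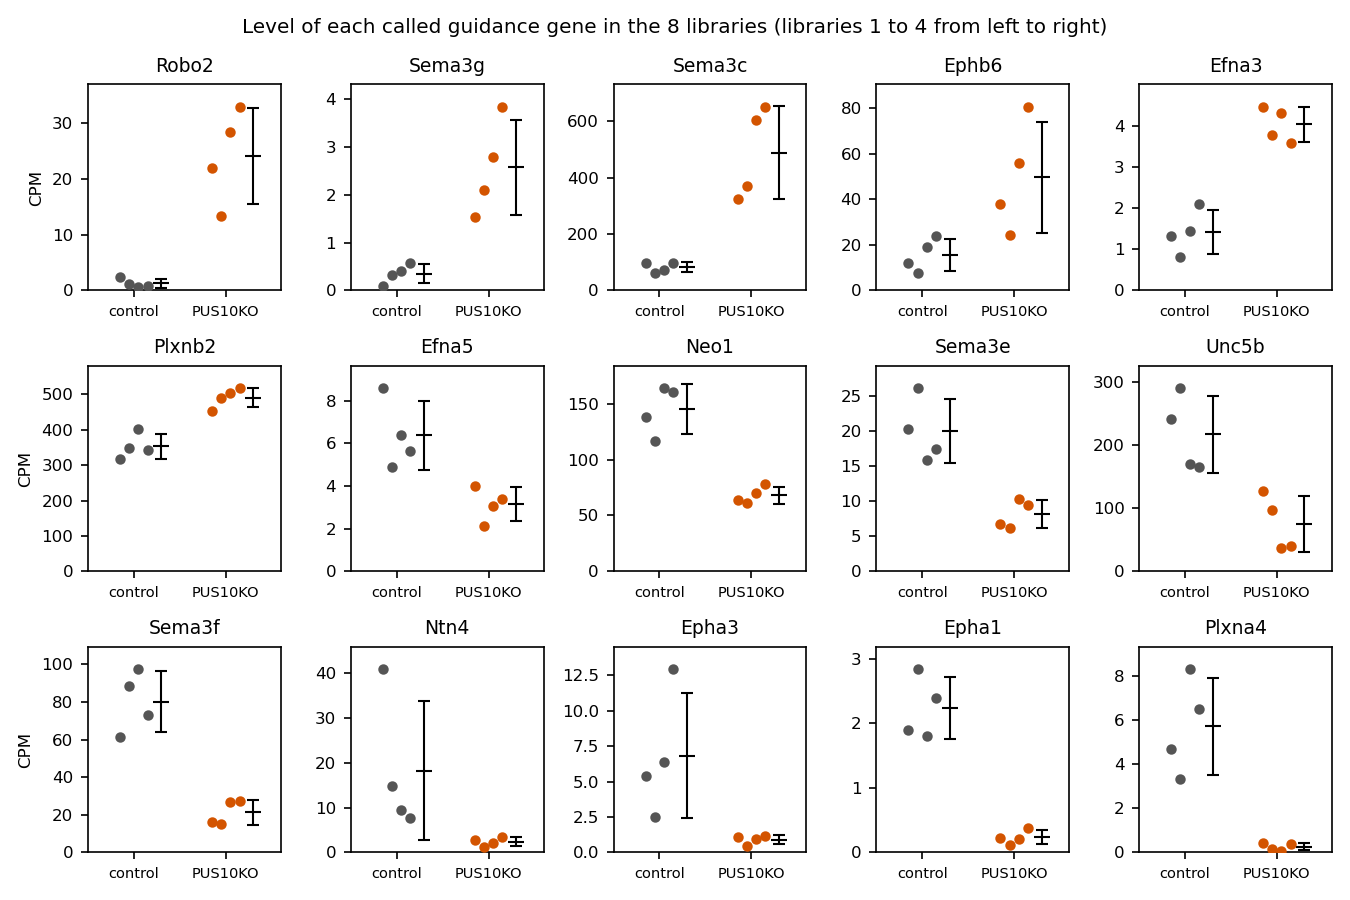
TMM-scaled CPM (y axis, from 0) of the 15 guidance genes that rose or fell, with 1 point per library in control (grey) and PUS10KO (orange), libraries 1 to 4 from left to right, and the mean ± SD (n = 4) as bars beside the points. In each panel the highest library of one genotype lies under the lowest of the other.

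Several guidance genes differed between library numbers in both genotypes. In 7 of the 49 tested members libraries 1 and 2 were both above libraries 3 and 4 in control and in PUS10KO (14.3%, against 21.8% of all genes tested), and in 14 they were both below (28.6%, against 22.9%). The first 7 were Epha2, Epha4, Efnb2, Plxna1, Sema3a, Sema7a and Unc5b. Sema7a, a lipid-anchored semaphorin, had 24.0, 10.2, 1.54 and 1.10 CPM in control and 10.1, 4.81, 0.929 and 0.541 CPM in PUS10KO, lower in PUS10KO at each number and far higher at numbers 1 and 2 than at 3 and 4. The labels do not say what a number shares. The 14 members called only with the block were Slit2, Slit3, Ntn3, Plxna3, Sema3d and Sema6a, which were higher in PUS10KO, and Epha2, Ephb2, Ephb3, Efnb2, Plxna2, Sema3a, Sema5a and Sema7a, which were lower.

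**Figure D4:**
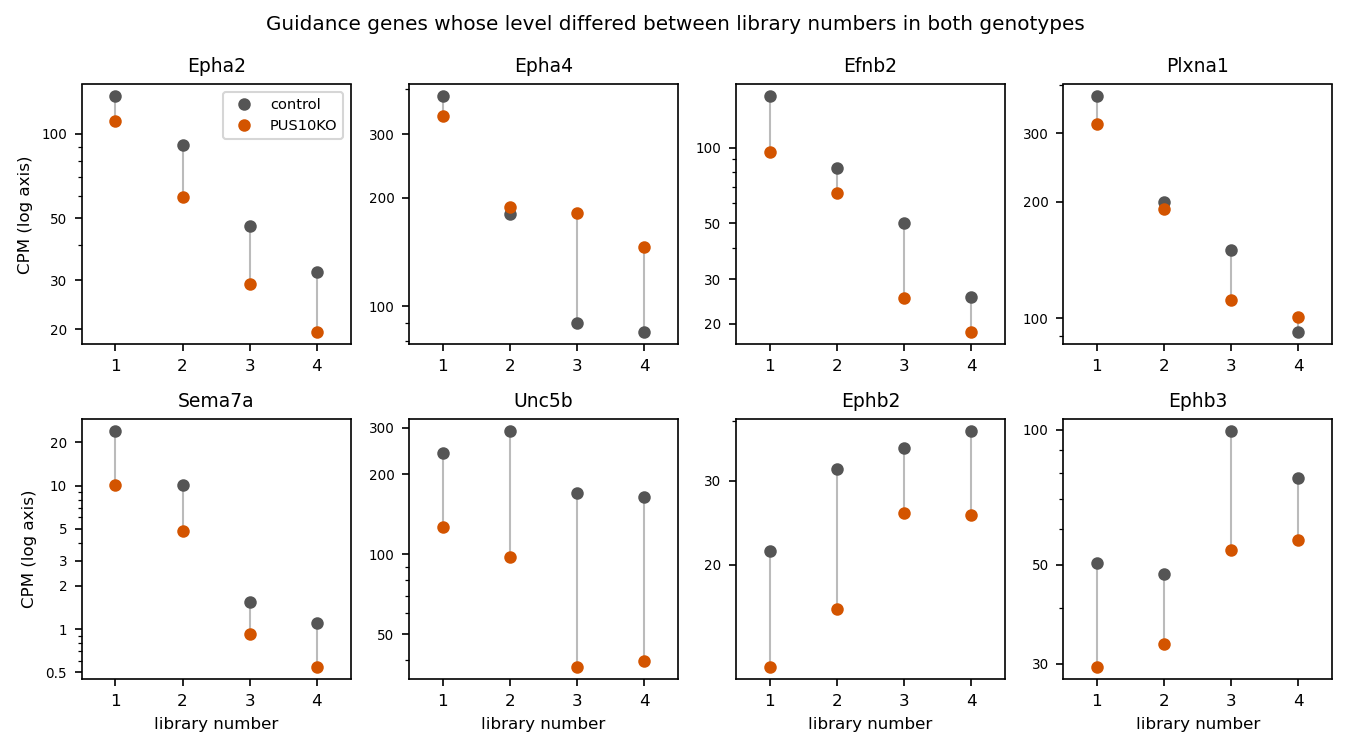
TMM-scaled CPM (y axis, log scale) of 8 guidance genes against library number (x axis), with control in grey, PUS10KO in orange and a line joining libraries of the same number. In Efnb2 and Epha2 the values for numbers 1 and 2 lie above those for 3 and 4 in both genotypes while PUS10KO is lower at each number.

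Over the autosomes and the X chromosome, the median log2 fold change of the tested genes ran from -0.60 on chromosome 12 to 0.20 on the X chromosome. None of the 15 called members lies on either of these. With the median of its chromosome taken off, each of the 15 kept its sign, from 4.46 for Robo2 to -4.27 for Plxna4, and the smallest was Plxnb2 at 0.34.

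Of 109 other genes of guidance signalling, chosen by role and with the same earlier results known, 90 had a row and 89 were tested. Among these 6 rose and 9 fell, 16.9% beside the 13.0% of all genes tested, and the replicate block called 15 higher and 23 lower, where it called 39.0% of all genes tested, 19.1% higher and 19.9% lower. Without PUS10KO 3 the number that fell was 5. Genes of semaphorin signalling had 1 rise and 4 falls among 18 tested, ephrin and Eph signalling 2 rises and no fall among 19, and Slit and Robo signalling 1 fall among 16. Netrin signalling had 1 rise and 2 falls among 15, and other extracellular guidance ligands and receptors 2 rises and 2 falls among 21. Fes, a tyrosine kinase that binds plexin A1, rose from 0.499 ± 0.145 to 4.90 ± 1.91 CPM, with log2 fold change 3.29, SE 0.39, edgeR adjusted p = 0.00098. Dpysl3, of the collapsin response mediator family that relays semaphorin signals to the cytoskeleton, fell from 325 ± 54.1 to 142 ± 33.9 CPM, with log2 fold change -1.19, SE 0.19, edgeR adjusted p = 0.00451. Fyn, a kinase of semaphorin 3A signalling, fell from 96.2 ± 31.9 to 40.5 ± 2.10 CPM, with log2 fold change -1.25, SE 0.21, edgeR adjusted p = 0.00516.

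Ngef, which encodes ephexin, an exchange factor activated by EphA receptors, rose from 1.28 ± 0.874 to 8.46 ± 2.59 CPM (n = 4 each, log2 fold change 2.71, SE 0.45, edgeR adjusted p = 0.00476). Lrrc4c, which encodes the netrin-G1 ligand, rose from 3.18 ± 0.937 to 8.63 ± 1.41 CPM (n = 4 each, log2 fold change 1.44, SE 0.26, edgeR adjusted p = 0.00768). Nell2, which encodes a secreted ligand of Robo3, rose from 0.245 ± 0.170 to 2.09 ± 1.29 CPM (n = 4 each, log2 fold change 3.07, SE 0.57, edgeR adjusted p = 0.00846). Its receptor gene was too low to be tested.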

How the data were processed

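Gene expression was measured in 4 control and 4 PUS10KO libraries, made with a stranded total RNA kit and sequenced paired-end, per the labels' protocols, and grouped by their labels. The authors deposited raw counts per gene symbol, 1 column per library. The authors also deposited normalized values which, by their range (5.13 to 18.12), are taken to be on a log2 scale that no source states. In these the control and PUS10KO values of a gene had the same sum at all 4 numbers (tolerance 1e-05), and they served for 1 alternative only. Alignment with STAR 2.7.8a, DESeq2 and the build mm10 are named per the submitters' processing notes. The counter, strand setting, annotation and gene filter are unknown from the sources used here.

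The deposited counts were tested with edgeR 4.0.16 in R 4.3.3 (filterByExpr, TMM, robust quasi-likelihood test, genotype as the only term, Benjamini-Hochberg adjustment over 11909 genes, threshold 0.05). DESeq2 1.42.0, limma 3.58.1 (voom), other scalings and filters, a replicate block and leaving out each library were alternatives. The code was tested on simulated data. Positions and exon lengths came from GENCODE M21, matched for 99.9% of rows. Chi-square per degree of freedom between libraries of a genotype was at least 17.93, so none was a repeat of another. Deviations from the genotype means correlated across genes between same-numbered libraries (r = 0.681, 0.722, 0.633 and 0.687 for numbers 1 to 4), where the highest r with another number was 0.303, 0.0416, 0.582 and 0.503. On this ground same-numbered libraries were treated as pairs in the block. This pairing comes from the counts, not the labels. Named are Pus10, the rows that fit the rule, with all library values for those called and for the highest by mean level per length in each role, and the 6 signalling genes with the lowest p. Others, such as Rgma and Rgmb, were chosen after their values were seen. One marker list is not reported here. Members and lists were chosen with earlier results of these data known.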

Additional observations from a re-analysis of the deposited data

Results flagged for a closer look

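The CPM values of 56 genes, which are the tested members, Pus10 and the 6 signalling genes with the lowest p, were examined in each genotype for 1 library standing apart from the other 3 by Dixon's gap-to-range ratio at the 0.05 level, a level that by its definition passes about 1 in 20 groups of normal values. Of these 112 groups 8 had such a library. Control 1 was the highest of its genotype for Robo1 (32.3 CPM), Sema5a (9.10 CPM), Unc5c (119 CPM), Fyn (144 CPM) and Ngef (2.58 CPM). PUS10KO 1 was the highest for Sema5a (3.52 CPM). Control 4 was the highest for Sema3d (3.11 CPM) and PUS10KO 4 for Nell2 (4.00 CPM). Of these genes Fyn, Ngef and Nell2 were called, and edgeR called them in each of the 8 fits that left out 1 library.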

How the results depend on the processing

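With RLE or upper quartile scaling, no filter, a filter of 10 counts in 4 libraries, or limma voom, the counts of called genes stayed within 1.5 times the main ones. DESeq2 called 1083 genes higher over all genes tested and 14 of the signalling genes lower. With the replicate block, which pairs libraries by number, 2273 genes were called higher and 2368 lower, 12 guidance genes higher and 17 lower, and 15 signalling genes higher and 23 lower. The median log2 fold change of the guidance genes was -0.02 relative to chromosome medians and -0.06 in the authors' deposited normalized values, against -0.14. Leaving out 1 library gave 492 to 638 genes higher and 520 to 728 lower (520 without PUS10KO 3 and 560 without PUS10KO 2), 4 to 7 guidance genes higher and 7 to 9 lower, 5 to 8 signalling genes higher and 5 to 9 lower, a guidance gene median of -0.13 to 0.01 (0.01 without control 1), and a Pus10 log2 fold change of -1.79 to -1.66. The log2 fold change of Epha4, not called, was -0.00 without control 3, -0.01 without control 4, -0.10 without PUS10KO 1 and 0.87 without control 1. The cause of these differences was not tested. Of the 15 called guidance genes 11 were called in all 8 of these fits. Low counts limit Robo3, Plxnc1, Sema4d, Sema5b and Sema6d, which were not tested.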
